A study of Mus musculus with 6 samples.

Results

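The genes described here are 9 of the 18537 known-gene clusters measured in luminal progenitor cells of the mouse mammary gland. They encode secreted or surface proteins of innate defence and were chosen by name, with their values in both genotypes already known. *Plunc*, U46068 and BC018465 are a run of clusters in the BPI-fold locus of chromosome 2. The other 6 are *Cd14*, *Ltf*, *Lcn2*, *Lbp*, *C3* and *Pigr*. Because the genotype contrast was known when the genes were chosen, their values and fold changes are given as a description, with no p-value.

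Luminal progenitors were sorted as Lin-CD24loCD29+CD61+ cells from adult nulliparous mice, 3 libraries being *Robo1+/+* (gh03, gh09 and gh15) and 3 *Robo1-/-* (gh06, gh12 and gh18). *Robo1-/-* mice were homozygous for the tm1Matl allele in the germ line, so that the receptor was lost from all tissues and not only from the mammary epithelium, and *Robo1+/+* littermates came from the same crosses of *Robo1+/-* parents. Each library pooled the cells of 2 animals, and spread between libraries is therefore spread between pools. Poly(A)+ RNA was sequenced, and values are normalized read counts, that is, reads divided by 1 size factor per library.

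Epithelia that face the outside defend themselves with secreted proteins. Some bind iron or iron-carrying siderophores and so starve bacteria, some bind lipopolysaccharide (LPS) and pass it to receptors, some belong to the complement cascade, and the polymeric immunoglobulin receptor carries antibodies across the cell. In the mammary gland many of them pass into milk. Proteins of the BPI fold, named after bactericidal/permeability-increasing protein, bind lipids, and those of the PLUNC branch are secreted by airway and oral epithelium.

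Depth ran from 9727191 to 17433868 recovered reads. *Robo1*, the targeted gene, had values of 289, 574 and 541 where both alleles were wild type and of 130, 214 and 177 in the knockout. Of the luminal progenitor markers, the receptor *Kit* lay between 4209 and 5644 and the transcription factor *Elf5* between 2366 and 3901, and none of the 10 markers was below 10 in every library. The 8 mature luminal markers summed to 45030 to 59097 in *Robo1+/+* and to 61986 to 73638 in *Robo1-/-* libraries, so that RNA of such genes was also present. *Prlr* was the largest part of each sum, with 21166, 31025 and 20097 in *Robo1+/+* against 36718, 26868 and 37136 in *Robo1-/-* libraries. Without it the sums of the genotypes overlapped. Replicate gh18 stood apart from the others. Over 12525 genes, transcript GC content was rank-correlated with a gene's deviation in a library from its mean in the remaining libraries. The correlation was -0.81 in gh18 and between 0.17 and 0.61 elsewhere. The measured transcripts of the defence genes have a GC content of 49.7% to 54.0%, and genes of 49% to 55% GC had a median deviation of -0.30 on the log2 scale in gh18 and of 0.03 to 0.11 in the other libraries. Fold changes without gh18, or with this GC trend subtracted, are therefore printed beside those of all 6 libraries where they differ most.

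The promoters of *C3*, *Ltf* and *Lcn2* are shown because these were 3 of the 4 genes with the highest levels and did not move together between libraries. Each sequence is the 250 bases before the RefSeq transcription start on GRCm38.p6, read 5′ to 3′ on the gene's strand: chr17:57228137-57228386 (minus) for *C3*, chr9:111019042-111019291 (plus) for *Ltf* and chr2:32387740-32387989 (minus) for *Lcn2*. Capitals mark matches on either strand to GGGA and CC with any 4 bases between them, letters like those of a κB site, or to TTNCNNAA, letters like those of a C/EBP site.
C3: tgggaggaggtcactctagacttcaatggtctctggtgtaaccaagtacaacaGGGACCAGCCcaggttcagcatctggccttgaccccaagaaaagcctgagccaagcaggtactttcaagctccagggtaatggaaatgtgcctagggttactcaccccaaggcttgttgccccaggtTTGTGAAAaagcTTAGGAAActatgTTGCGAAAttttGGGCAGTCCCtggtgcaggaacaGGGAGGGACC
Ltf: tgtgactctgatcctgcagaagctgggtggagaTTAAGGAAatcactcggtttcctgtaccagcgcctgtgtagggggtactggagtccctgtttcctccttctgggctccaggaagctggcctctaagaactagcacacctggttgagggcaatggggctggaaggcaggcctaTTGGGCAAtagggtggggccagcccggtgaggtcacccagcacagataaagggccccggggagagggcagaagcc
Lcn2: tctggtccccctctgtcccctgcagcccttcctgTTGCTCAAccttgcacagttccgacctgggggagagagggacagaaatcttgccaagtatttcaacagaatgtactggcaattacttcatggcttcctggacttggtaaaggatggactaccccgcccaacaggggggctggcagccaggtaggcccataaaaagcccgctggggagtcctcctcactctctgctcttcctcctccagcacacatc

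The *C3* promoter held 3 matches to the κB-like letters, with first bases 197, 33 and 10 bases before the start. It also held TTNCNNAA at 3 places, 70, 58 and 45 bases before the start, the last of which matched on both strands. *Ltf* had TTNCNNAA at 217 and 75 bases before the start, *Lcn2* had it at 216, and neither held the κB-like letters. Among 32851 RefSeq promoters, 17.6% held at least 1 match to the κB-like letters and 36.8% at least 1 to TTNCNNAA. Neither TTCNNNGAA, letters like those of a STAT site and found in 7.02% of promoters, nor TATAAA, found in 12.4%, occurred in these 3 windows. The promoters of *Pigr* and *Bpifa1* were searched too. *Pigr* held 1 match to the κB-like letters, 232 bases before the start, and *Bpifa1* held 2 to TTNCNNAA and 1 to TATAAA. The matches are a description of letters and do not show that a factor binds there.

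The *Robo1+/+* levels of the defence genes, set side by side per kilobase of transcript, ranged from those of abundant secreted products to almost nothing. *Lcn2*, which encodes lipocalin 2, a protein that captures bacterial siderophores, came first with 9839 ± 1667 normalized reads per kb (SD, n = 3), rank 58 among 16008 clusters with a transcript length. *Ltf*, encoding the iron-binding milk protein lactoferrin, followed with 4674 ± 2758 per kb (rank 153). *Cd14*, the LPS co-receptor, stood at 2632 ± 171 per kb (rank 265), and *C3*, the central component of complement, at 1850 ± 1031 (rank 427). *Lbp*, the serum protein that carries LPS to Cd14, was lower at 460 ± 123 per kb (rank 2269). *Pigr*, the receptor that moves polymeric IgA across epithelium, reached 56.9 ± 9.21 per kb (rank 8933), and *Plunc* 0.567 ± 0.981 (rank 14409). In *Robo1-/-* libraries the same genes had 9976 ± 2542, 7362 ± 3186, 1894 ± 773, 1151 ± 843, 572 ± 203, 57.5 ± 16.3 and 2.75 ± 3.43 normalized reads per kb, again from *Lcn2* down to *Plunc*.

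Some neighbours in this order were apart and others were not. *Lcn2* was above *Ltf* in 6 of 6 libraries, and their *Robo1+/+* ranges, 8589 to 11732 and 1913 to 7428 per kb, did not overlap. *Ltf* was above *Cd14* in 5 of 6 and *Cd14* above *C3* in 4 of 6 libraries, and both pairs overlapped among the *Robo1+/+* libraries. *C3* exceeded *Lbp* in 5 of 6 libraries, *Lbp* exceeded *Pigr* in 6 of 6 and *Pigr* exceeded *Plunc* in 6 of 6. These levels use the longest coding transcript, and the places of *Lbp* and *Pigr* depend on it. With the shortest annotated coding transcript *Lbp* was at 2666 ± 712 per kb in *Robo1+/+*, above *C3* and above *Cd14* in 5 of 6 libraries each, and *Pigr* was at 296 ± 47.9. Those transcripts have 436 bases for *Lbp* and 740 for *Pigr*, beside 2525 and 3849 for the longest. Dividing all reads of a gene by so short a length raises its level. Which transcripts the reads came from was not measured. No transcript length was at hand for U46068 and BC018465, which are left out of the order. The plot of levels per transcript length shows the order and its spread.

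**Figure D1:**
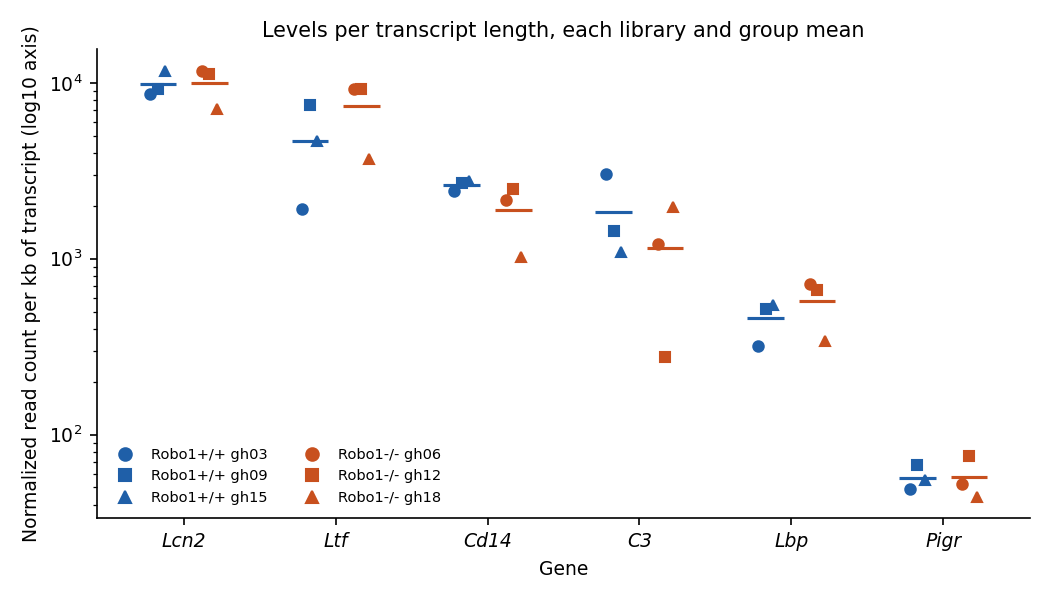
Normalized read counts per kb of transcript (log10 axis) of 6 innate defence genes, with 1 point per library, coloured by genotype, and a bar at the mean of each group. *Lcn2* was highest in 6 of 6 libraries, *Pigr* was lowest of the genes drawn, and *C3* and *Ltf* had the widest spread.

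Among the iron-binding and siderophore-binding proteins, *Lcn2* varied 1.66-fold and *Ltf* 4.82-fold between its highest and lowest library. *Lcn2* (chromosome 2, 32240153 to 32243317 of NCBI37/mm9, minus strand) had values of 7859 (gh03), 8414 (gh09) and 10734 (gh15) in *Robo1+/+* and of 10640 (gh06), 10294 (gh12) and 6449 (gh18) in *Robo1-/-* cells, an order kept for the genes that follow. The genotypes overlapped, with gh18 the lowest library of all, and the means were 9002 ± 1525 and 9128 ± 2326 (SD, n = 3 each). The log2 fold change, *Robo1-/-* against *Robo1+/+*, was -0.00 (SE 0.27), and with the GC trend subtracted it was 0.26.

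*Ltf* (chromosome 9, 110921796 to 110945270, plus strand) had 5244, 20367 and 12841 in *Robo1+/+* against 25283, 25177 and 10099 in *Robo1-/-* libraries. Replicates gh06 and gh12 were the highest of all, but gh18 fell below 2 of the 3 *Robo1+/+* libraries, and gh03 was the lowest. The means were 12817 ± 7561 and 20186 ± 8736. The log2 fold change was 0.74 (SE 0.57). It rested on single libraries: it was 0.20 without gh03, 1.18 without gh18 and also 1.18 without gh09. The SD within groups was 0.89 on the log2 scale, and 84.3% of the 13692 tested genes had a smaller one.

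The LPS-handling pair follows. *Cd14* (chromosome 18, 36884728 to 36886390, minus strand) had values of 3835, 4223 and 4353 in *Robo1+/+* and of 3406, 3920 and 1605 in *Robo1-/-* libraries. The *Robo1+/+* libraries were close together, gh12 lay among them, gh06 lay just below them and gh18 far below. The log2 fold change was -0.57 (SE 0.35), and -0.18 without gh18. In gh18, *Cd14* was 1.29 lower on the log2 scale than the mean of the other 5 libraries, and 0.73 lower after the GC trend was subtracted.

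*Lbp* (chromosome 2, 158132229 to 158158588, plus strand) had values of 807, 1302 and 1378 in *Robo1+/+* and of 1802, 1676 and 858 in *Robo1-/-* libraries. As for *Ltf*, gh06 and gh12 were the highest and gh03 and gh18 the lowest, so that the genotypes overlapped. The log2 fold change was 0.28 (SE 0.36), it was 0.04 without gh03 and 0.62 without gh18.

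*C3* was the most variable of the measured defence genes, and the libraries where it was highest, gh03 and gh18, were those where *Ltf* was lowest. It lies on chromosome 17 (57343397 to 57367559, minus strand) and had values of 15513, 7409 and 5568 in *Robo1+/+* and of 6240, 1422 and 10055 in *Robo1-/-* libraries. The highest library, gh03, was 10.9-fold above the lowest, gh12, and gh18 was second highest, so that both genotypes held high and low libraries. The means were 9496 ± 5291 and 5906 ± 4326. The log2 fold change was -0.95 (SE 0.74), -0.12 without gh12 and -1.53 without gh18. Its SD within groups was 1.17 on the log2 scale, above that of 92.1% of the tested genes.

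*Pigr*, which lies on chromosome 1 from 132723261 to 132748826 (plus strand), had 188, 258 and 211 in *Robo1+/+* against 201, 291 and 171 in *Robo1-/-* libraries. The genotypes overlapped fully, with means of 219 ± 35.5 and 221 ± 62.7 and a log2 fold change of -0.01 (SE 0.30). Of the 75-base sequences of its transcript, 0.477% also occur in other genes, against none for the other 5 measured genes.

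**Figure D2:**
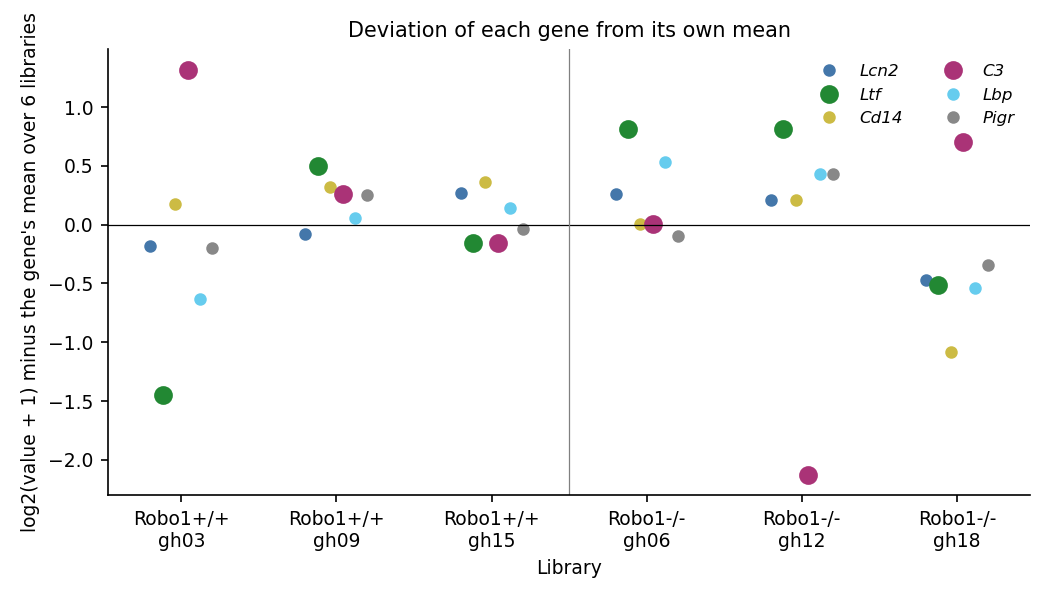
Deviation of log2(value + 1) from the gene's own mean over 6 libraries, for 6 innate defence genes, with *Robo1+/+* libraries on the left and *Robo1-/-* libraries on the right and no order among libraries of a genotype. In gh03 *C3* was the highest and *Ltf* the lowest point, in gh12 *C3* was far below the others, and in gh18 all but *C3* were below 0.

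Enough reads for a fit were present for these 6 genes and not for the BPI-fold clusters. Of the 13692 genes fitted, 0.840% were called (0.548% lower and 0.292% higher in *Robo1-/-*), that is, had an unadjusted p under 0.05 and an absolute log2 fold change above 1 (limma), and 9.41% had groups that did not overlap. Of the 6 genes, 0 were called and 0 had groups that did not overlap, and since they were chosen with these values known, nothing is read from the counts. None of the 6 was called under any of 15 other settings, among them edgeR, DESeq2 and the fit without gh18, in which 1.42% of the tested genes were called. Without gh18 the groups of *Ltf* and of *Lbp* did not overlap, as was so for 20.3% of the tested genes. The sign of the fold change of *Lcn2* and of *Pigr* differed from that of the main fit in 6 of the 15.

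**Figure D3:**
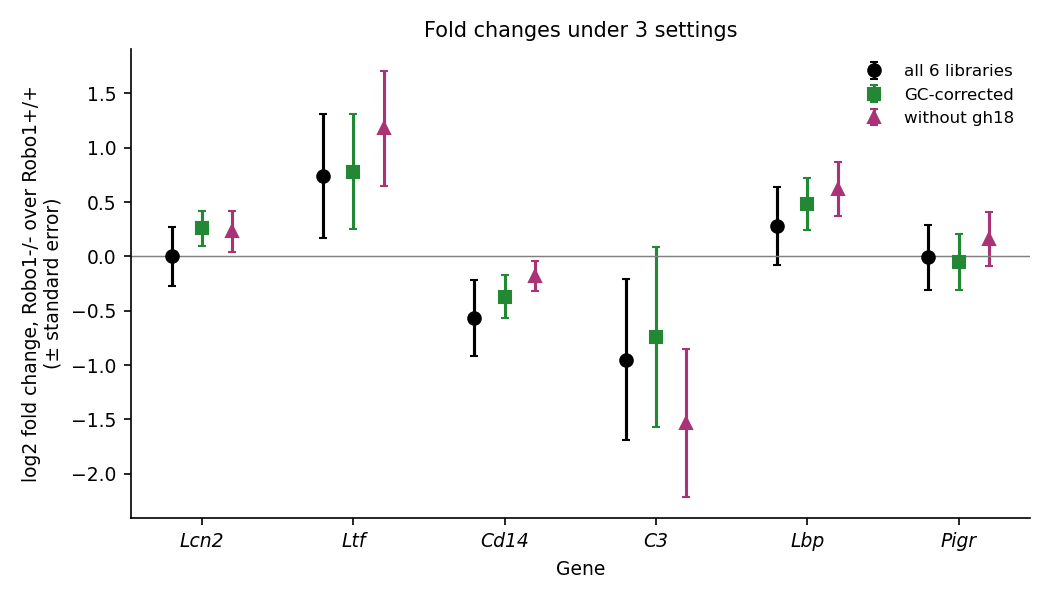
Log2 fold change, *Robo1-/-* against *Robo1+/+*, of each gene that passed the filter, with its standard error as a bar, for all 6 libraries (circles), with the GC trend subtracted (squares) and without gh18 (triangles). *C3* and *Ltf* had the widest standard errors, 0.74 and 0.57 over all 6 libraries, and lay on opposite sides of 0.

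Taking the 9 genes together, their reads made up 0.251%, 0.307% and 0.262% of all reads in gh03, gh09 and gh15 and 0.339%, 0.308% and 0.206% in gh06, gh12 and gh18. The makeup of this sum differed more than the sum. *Ltf* gave 15.6%, 48.5% and 36.6% of the reads in the *Robo1+/+* and 53.1%, 58.8% and 34.5% in the *Robo1-/-* libraries. *C3* gave 46.3%, 17.6% and 15.9% and then 13.1%, 3.3% and 34.4%. The ratio of the *Ltf* to the *C3* value ran from 0.338 in gh03 to 17.7 in gh12, a ratio within each library that does not depend on its size factor. The ratio of *Lcn2* to *Cd14* stayed within 1.99 to 4.02.

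How alike the profiles were was measured as the root mean square difference between centred log2(value + 1) values over the 6 libraries, where 0 means parallel profiles. *Lcn2* and *Lbp* were closest at 0.25, followed by *Lcn2* and *Pigr* at 0.26, *Lbp* and *Pigr* at 0.34 and *Cd14* and *Lcn2* at 0.35. *Ltf* and *C3* were the farthest apart at 1.75. The mean centred profile of the 6 genes was -0.16, 0.22 and 0.07 in gh03, gh09 and gh15 and 0.25, -0.01 and -0.37 in gh06, gh12 and gh18. In this mean *C3* and *Ltf* partly cancelled: *C3* was at 1.32 in gh03 and -2.13 in gh12, where *Ltf* was at -1.45 and 0.81. The 8 tested genes nearest to this mean were *Morn4*, *Bsg*, *March2*, *Zfp236*, *Ets2*, *Gbf1*, *Prr3* and *Afap1*, at 0.04 to 0.07. Nearness to the mean is not nearness to each of the genes averaged.

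Since *C3* and *Ltf* departed from the others, their own nearest profiles were looked up after their values had been seen. Nearest to *C3* were *AF529169* at 0.30, *B4galnt4* at 0.31 and *Agtr1a* at 0.32, and nearest to *Ltf* were *Chrnb4* at 0.15, *Snord123* at 0.18 and *Dnajc12* at 0.18. *Agtr1a*, the angiotensin receptor, had 4774, 1390 and 857 in *Robo1+/+* against 1115, 246 and 2126 in *Robo1-/-* libraries. As for *C3*, gh03 was highest, gh18 second and gh12 lowest. *Agtr1a* was picked for its likeness to *C3*, so this shared order is no separate observation.

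The BPI-fold clusters were read only a few times per library. *Plunc* is annotated as *Bpifa1* (chromosome 2, 153968616 to 153974955 of NCBI37/mm9, plus strand), and U46068 and BC018465 are numbered 15186 and 15187 after its 15184, before *Cdk5rap1* at 15190. Between *Bpifa1* and *Cdk5rap1*, which starts at 154161116, the annotation has *Bpifa5*, *Bpifb1*, *Bpifb5*, *Bpifb9a* and *Bpifb9b*. The files do not say which of these the other clusters are, so no position is given for them.

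U46068 had 43, 10 and 5 reads in gh03, gh09 and gh15 and 2, 1 and 2 reads in gh06, gh12 and gh18. The 95% exact Poisson interval of the 43 reads is 31.1 to 57.9 and that of the 10 reads 4.80 to 18.4, and like all intervals here they cover counting error only. Most of the *Robo1+/+* reads came from gh03, and the lowest *Robo1+/+* library was above the highest *Robo1-/-* library. This was the 1 case among the 9 genes. Of the 13692 tested genes 9.41% had groups that did not overlap, a share over genes that passed the filter, as U46068 did not. Since the 9 genes were chosen with these values known, nothing is read from the count. Scaled to library size, the summed reads, 58 against 5, were 9.81-fold higher in *Robo1+/+*, and 3.39-fold higher without gh03. Reads summed over libraries are not replicates of a genotype, so no interval is given for such ratios. Fitted without a filter, the log2 fold change was -2.27 (SE 0.86).

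BC018465 had 18, 4 and 13 reads in *Robo1+/+* against 6, 6 and 3 reads in *Robo1-/-* libraries. Here too gh03 was highest, but gh09 lay below 2 of the *Robo1-/-* libraries. The summed reads, 35 against 15, gave a ratio of 1.97, and of 1.28 without gh03.

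*Plunc* had 0, 0 and 2 reads in *Robo1+/+* against 0, 2 and 5 reads in *Robo1-/-* libraries. A library with 0 reads allows up to 3, and *Plunc* was above this number in gh18 alone, with 5 of its 7 *Robo1-/-* reads. In contrast to U46068, gh03 had none.

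**Figure D4:**
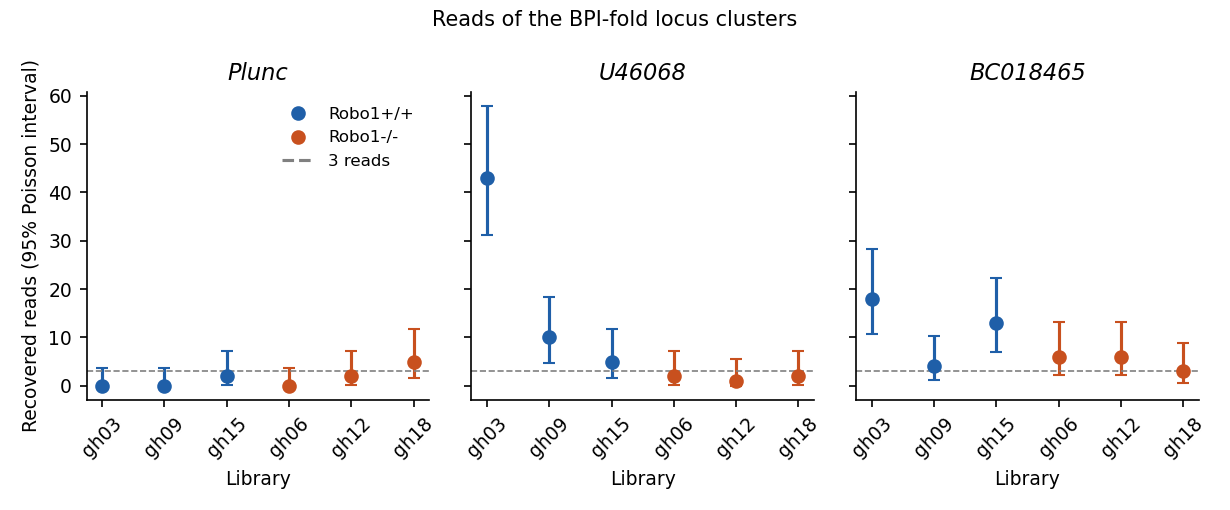
Recovered reads of the 3 BPI-fold clusters in each library, with 95% exact Poisson intervals, coloured by genotype. U46068 and BC018465 were highest in gh03, with 43 and 18 reads, and *Plunc* was highest in gh18, with 5.

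Cells other than epithelium also make these proteins, neutrophils storing *Ltf* and *Lcn2* products in granules and macrophages carrying *Cd14*, so markers of these cells were read beside them. Cells positive for CD45, Ter119, CD31 or BP-1 had been depleted before the sort, a step that takes out leukocytes. In these bulk libraries fewer cells of a type and less RNA per cell cannot be told apart. Of 12 macrophage markers in the file, *Cd14* left out, 10 were below 10 in every library, and their sum was 137 to 169 in *Robo1+/+* and 105 to 134 in *Robo1-/-* libraries. *Ptprc*, the marker of all leukocytes, did not exceed 1.46. The neutrophil genes *S100a9*, *Ngp*, *Mpo* and *Elane* were not in the file and could not be read. Of 4 neutrophil markers in the file, *Ltf* and *Lcn2* left out, 2 were below 10 in every library, and the granule gene *Camp* did not exceed 0.780. Their sum, 57.2 to 197 and 44.9 to 184, was mostly *S100a8*, with 184 in gh03 and 166 in gh18, the libraries where *C3* was highest too. The other markers did not share this order: *Cxcr2* was highest in gh12 (13.7), where *C3* was lowest, and *Csf3r* in gh06 (9.21).

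The 9 basal markers summed to 2174 in gh03, where *C3* was highest, and to between 672 and 1519 elsewhere. In gh18, where *C3* was second highest, they summed to 991, below gh15 (1256) and gh06 (1519). The 6 fibroblast markers summed to 307 in gh12, where *C3* was lowest, and to between 704 and 1039 elsewhere. The low sum came from *Dcn*, at 88.9 in gh12 and at 389 to 655 elsewhere: without it the other 5 summed to 218 in gh12, within the 153 to 398 of the other libraries. The part of these cells in the *C3* values was not tested. The luminal progenitor markers summed to 57649 in gh18 and to between 103220 and 132692 in the other libraries. The keratins *Krt8*, *Krt18* and *Krt19* carried this drop: the other 7 markers summed to 32239 in gh18 and to 22046 to 36922 elsewhere.

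Other genes of the same defence pathways were taken as 7 lists, the genes above left out. Of 151 list genes in the file 121 were tested, and 1 was called (0.826%, beside 0.840% of all tested genes), with 56 fold changes above and 65 below 0 and a median of -0.06, beside 0.00 for all tested genes. No gene of the whole table had an adjusted p under 0.05 in limma, where 231 had an unadjusted p under 0.05, 3 of them in the lists. edgeR also gave 0 genes at an adjusted p under 0.05, and DESeq2 gave 1.

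The called gene, *Nfkb2*, belongs to the LPS-sensing and NF-κB list and encodes the p100 precursor of the NF-κB family. It had values of 3123, 3358 and 4080 in *Robo1+/+* and of 2682, 1714 and 823 in *Robo1-/-* libraries, which did not overlap. The log2 fold change was -1.17 (SE 0.42, adjusted p = 0.86 in limma). It was -0.71 without gh18 and -0.38 with the GC trend subtracted, and neither was past the thresholds. Of 30 tested genes in this list, 15 were above and 15 below 0, and 12 and 18 without gh18. The LPS receptor *Tlr4* had 291, 448 and 531 against 387, 758 and 1056 (log2 fold change 0.72, SE 0.42, and 0.40 without gh18), and its partner *Ly96* 53.4, 76.0 and 74.1 against 49.5, 99.8 and 114. *Nfkbia*, the inhibitor IκBα, had 9396, 9755 and 9012 against 9407, 6928 and 5589 (-0.39, SE 0.24, and -0.22 without gh18).

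Of the 24 tested genes for other secreted antimicrobial and milk defence proteins, 0 were called, 8 being above and 16 below 0 with a median of -0.38, which was -0.19 without gh18. The iron carrier *Trf* was at the highest level per kb of these over all 6 libraries, at 11498 beside 10347 for *Expi*, which was the higher of the pair in *Robo1+/+* (11649 beside 10499). *Trf* had values of 34380, 33688 and 27309 in *Robo1+/+* and of 42147, 45818 and 25560 in *Robo1-/-* libraries (0.21, SE 0.28, and 0.47 without gh18). *Expi*, a whey acidic protein family member, had 9910, 2918 and 5379 against 3579, 2911 and 7647 (-0.32, SE 0.53, and -0.74 without gh18), with gh03 and gh18 on top as for *C3*. *Mfge8*, the milk fat globule protein, had 17788, 21907 and 15436 against 22960, 15158 and 3737 (-0.74, SE 0.63). Its fold change rested on gh18 and was 0.04 without that library and -0.11 with the GC trend subtracted. All of these genotypes overlapped.

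Of the 19 tested complement genes, 0 were called, with 14 above and 5 below 0 and a median of 0.29, which was 0.20 without gh18 and 0.13 with the GC trend subtracted. *Clu*, encoding clusterin, which binds the terminal complement complex, had 15739, 14180 and 13570 in *Robo1+/+* against 12938, 14308 and 5530 in *Robo1-/-* libraries (-0.52, SE 0.38), and the fold change was -0.09 without gh18. The regulators that protect cells from C3 convertases were both higher in gh18 than elsewhere, *Cd55* with 933, 1325 and 1526 against 1332, 1324 and 2237, and *Cr1l* with 793, 837 and 773 against 865, 971 and 1304. With the GC trend subtracted their log2 fold changes went from 0.35 to 0.02 and from 0.36 to 0.14. *Cfb*, encoding factor B, which joins C3 in the alternative pathway convertase, had 472, 356 and 388 against 275, 197 and 464.

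The remaining lists held 0 called genes. Of 28 tested cytokines and regulators that induce defence genes, 12 were above and 16 below 0 with a median of -0.09, among them the chemokine *Cxcl1* with 2492, 4059 and 3907 against 4200, 5038 and 6651 (0.61, SE 0.28, and 0.43 without gh18) and *Stat3* with 12217, 12688 and 12218 against 10955, 11003 and 7982 (-0.33, SE 0.21, and -0.17 without gh18). Of 10 tested iron and siderophore partners of the lipocalin, 3 were above and 7 below 0 with a median of -0.55, which was -0.14 without gh18. The ferritin chain *Fth1* had a log2 fold change of -0.01 (SE 0.28) and *Ftl1* of -1.71 (SE 1.05), which was -0.38 without gh18. *Slc22a17*, the lipocalin 2 receptor, had 244, 319 and 348 against 290, 252 and 37.9. Of 9 tested immunoglobulin transport genes around *Pigr*, 4 were above and 5 below 0 with a median of -0.06. *Pltp*, encoding phospholipid transfer protein, was the 1 other BPI-fold gene tested and had 24.2, 20.4 and 18.8 against 21.9, 22.9 and 2.92 (-0.77, SE 0.74), a fold change that was 0.09 without gh18.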

How the data were processed

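Poly(A)+ RNA was sequenced from 6 libraries, with genotypes from the labels. The deposited unit is a normalized signal for each known-gene cluster: read counts divided by 1 size factor per library. The authors trimmed reads to 75 bases, removed repeat reads with bowtie2, used TopHat to map to NCBI37/mm9 and DESeq2 to normalize, while the submitters' processing notes name DESeq. The counting tool and its use of strand are not given in the sources used here, so overlapping genes are uncertain.

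Whole reads were recovered from the deposited values by dividing by the value of 1 read. All but 3 values were whole within 0.005. The recovered reads per library, 9727191 to 17433868, set the precision, and 3 reads were taken as the limit for a gene at 0. Genes kept by filterByExpr of edgeR (4.0.16) were compared as log2(value + 1) with limma (3.58.1, R 4.3.3) with an empirical Bayes trend, and p-values were Benjamini-Hochberg adjusted over all 13692 genes. Fold changes are on that scale and understate the change of low genes. A gene was called at an unadjusted p under 0.05 with an absolute log2 fold change above 1. Alternatives were edgeR and DESeq2 (1.42.0) on the recovered reads, TMM scaling, pseudocounts of 0.5 and 5, no filter, a mean value of at least 10, subtraction of a lowess curve on transcript GC content, and leaving out single libraries. The limma fit, and not the alternatives, was tested on simulated data, which held no GC trend.

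Positions and lengths (longest coding transcript) come from GENCODE M1 on NCBI build 37, in which 16480 clusters (88.9%) were found by symbol, and promoters from RefSeq on GRCm38.p6. The shortest coding transcript was an alternative for levels. That table had entries for *C3*, *Ltf*, *Lcn2*, *Pigr* and *Bpifa1* and none for *Lbp*. The genes described and the lists were chosen with earlier results of these data known. Beyond them, the rule named *Robo1*, at most 5 called genes and the 3 with the highest level per kb of each list, and the 8 nearest profiles. Other list genes, the motifs searched and the profiles nearest to *C3* and *Ltf* were chosen after values were seen.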

Additional observations from a re-analysis of the deposited data

How the results depend on the processing

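Of the 13692 genes tested, 115 were called, 65.2% of them lower in *Robo1-/-*. The count was 304 with no filter on low reads and 178 with DESeq2. With the GC trend subtracted it was 59, 40.7% of them lower. With the GC trend subtracted and gh18 left out, a setting chosen after seeing the data, it was 173. Leaving out each library in turn gave 84 (without gh03) to 631 (without gh06), and 195 without gh18. Among the 121 list genes the 1 call (0.826%) became 2 (1.65%) with a pseudocount of 5 (*Nfkb2* and *Spp1*). edgeR also gave 2 (*Nfkb2* and *Csf3*). Of all tested genes 0.767% and 0.789% were called in these settings. DESeq2 called 5 of 150 list genes (3.33%, beside 0.961% of all genes). No filter gave 5 of 151 (3.31%, beside 1.64%). *Il6*, which had not passed the filter, was called in both, and *Tlr6* and *Itgam*, likewise, with no filter. With the GC trend subtracted 0 of 119 were called, beside 0.471%. Leaving out gh18 as well gave 5 of 119 (4.20%, beside 1.38%). Leaving out each library in turn gave 1 to 7 of the 121 list genes. There were 7 without gh06 (5.79%, beside 4.61% of all tested genes) and 4 without gh18 (3.31%, beside 1.42%). Without gh12 there were 2 (1.65%, beside 0.723%). The call of *Nfkb2* was lost without gh03 (-1.25), gh09 (-1.20), gh15 (-1.06) or gh18 (-0.71) and with the GC trend subtracted (-0.38). The causes were not tested. No paired analysis was possible because the groups share no replicate numbers. With 10 reads or fewer in most libraries, depth limits what can be said of the BPI-fold clusters.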

Other observations

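Several list genes, picked after their values were seen, were far higher in *Robo1+/+* replicate gh03 than in any other library, as U46068 was. The surfactant protein gene *Sftpd* had values of 406, 14.1 and 23.4 in gh03, gh09 and gh15 and of 28.8, 0 and 16.1 in gh06, gh12 and gh18. The defensin gene *Defb1* had 1139, 258 and 118 and then 281, 10.1 and 185. The acute-phase gene *Saa3* had 68.7 in gh03 and at most 0.940 elsewhere. In contrast, the lectin gene *Reg3g*, with 15.3, 147 and 121 and then 204, 163 and 42.3, and *Lgals3*, with 1869, 5113 and 4121 and then 4929, 4720 and 2777, were lowest in gh03 and next lowest in gh18, as *Ltf* and *Lbp* were among the genes described above.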
